A study of Homo sapiens with 19 samples.

Results

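Replication-dependent histone genes code for the H1 linker histones and the H2A, H2B, H3 and H4 core histones that package newly made DNA. They were taken here as every gene whose GENCODE symbol is H1-1 to H1-6 or begins with H2AC, H2BC, H3C or H4C followed by a number. The rule found 67 of 19924 gene IDs in the per-gene tables, namely 6 H1, 15 H2A, 18 H2B, 13 H3 and 15 H4 genes, and 94 of 256980 transcripts in the per-transcript table. A further 2 genes, H2AC18 and H2AC19, met the rule only in the per-transcript table.

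Messenger RNAs of these genes differ from other mRNAs in that they normally end in a conserved stem-loop and carry no poly-A tail. The stem-loop is bound by SLBP, and the 3′ end is made by a cut just after the loop that needs the U7 snRNP with LSM10 and LSM11. The genes are transcribed mainly in S phase under NPAT, and their mRNAs are decayed at its end through SLBP, UPF1, the exonuclease ERI1 and terminal uridylation. A poly-A selection is therefore known to capture them poorly, whereas a library made after removal of ribosomal RNA does not depend on a tail. Some members also have polyadenylated forms that run past the stem-loop.

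All samples came from SH-SY5Y, a neuroblastoma cell line. G3BP1 and G3BP2, a pair of related RNA-binding proteins of stress granules (SGs), were studied with and without sodium arsenite (AS), an oxidative stressor that makes SGs form. Untreated and AS cells were profiled by eCLIP, which cross-links protein to RNA with ultraviolet light and sequences the RNA that comes down with the protein, with 2 libraries for each protein and condition. Messenger RNA was sequenced in cells given a control siRNA (siCtrl), an siRNA against G3BP1 (siG3BP1) or one against G3BP2 (siG3BP2). It was also sequenced in 2 fractions of AS cells, namely the cleared lysate (Total) and the SG cores pulled down from its pellet with an antibody to G3BP1 (SG). Another provider sequenced rRNA-depleted libraries of untreated and AS cells. Each RNA-seq condition had 1 library, so no difference between RNA-seq libraries has a replicate check. The sample labels call the Total and SG libraries poly-A as well, while the methods name that selection for the knockdown libraries only; the part of this in the results was not tested. The AS label of the rRNA-depleted library gives 500 μM for 1 h, whereas the labels of the other libraries, untreated and siRNA ones included, give 50 mM for 1 h.

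The members lay on chromosome 6 (55 genes), chromosome 1 (11) and chromosome 12 (H4C16). In 51 of the 67 every annotated transcript had a single exon. The coding transcript that ended at the loop, found for 66 members, had a median length of 486.5 nt (386 to 797). There were 12 divergent pairs of an H2A and an H2B gene whose starts lay less than 500 nt apart.

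A stem-loop spelled GG, any 2 bases, CTT, any base, T, any base, AG, any 2 bases and CC followed the stop codon by 22 to 62 nt (median 35) in all 67 members. Among 19892 genes with an annotation in GENCODE release 44, 73 (0.367%) held this motif in the last 60 bases of a transcript, of which 66 were members and 7 were not. On the other strand 8 genes (0.0402%) held it. The loop read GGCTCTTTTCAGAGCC in 38 members, and it was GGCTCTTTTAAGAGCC in 9. The 15 H4 genes carried other forms, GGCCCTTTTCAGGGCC in 10, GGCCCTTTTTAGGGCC in 4 and GGCCCTTCTCAGGGCC in H4C13. Outside the H4 genes, loops found in a single member each were those of H2AC11, H2AC15, H2AC20, H2BC10 and H3C6. The sequences below, read 5′ to 3′ from hg38 with the loop in capitals and its coordinates in brackets, are those of members on which the results turn, followed by the singly occurring loops.
H4C4 (chr6:26188715-26188730, minus strand): accaacGGCCCTTTTCAGGGCCaccta
H4C8 (chr6:26285131-26285146, minus strand): accaaaGGCCCTTTTCAGGGCCgccca
H1-5 (chr6:27866797-27866812, minus strand): cccaaaGGCTCTTTTCAGAGCCaccca
H1-2 (chr6:26055744-26055759, minus strand): ccaaaaGGCTCTTTTCAGAGCCaccac
H2BC12 (chr6:27146366-27146381, minus strand): cccaaaGGCTCTTTTAAGAGCCactta
H2BC5 (chr6:26158587-26158602, plus strand): cccaaaGGCTCTTTTAAGAGCCacgca
H2BC18 (chr1:149811885-149811900, minus strand): cccaaaGGCTCTTTTCAGAGCCacttc
H2AC25 (chr1:228457369-228457384, minus strand): cataaaGGCTCTTTTCAGAGCCaccta
H4C14 (chr1:149833032-149833047, plus strand): cccaaaGGCCCTTTTTAGGGCCgacca
H4C13 (chr6:27873153-27873168, minus strand): ctcaaaGGCCCTTCTCAGGGCCaccca
H2AC11 (chr6:27133515-27133530, plus strand): accaacGGCTCTTTTCAGGGCCaccca
H2AC15 (chr6:27837885-27837900, minus strand): caaaaaGGTTCTTTTCAGAGCCaccta
H2AC20 (chr1:149887391-149887406, plus strand): accaaaGGCTCTTTTTAGAGCCaccca
H2BC10 (chr6:26273392-26273407, plus strand): cccaaaGGCTCTTCTAAGAGCCaccca
H3C6 (chr6:26225596-26225611, plus strand): tccaaaGGCTCTTCTCAGAGCCaacca
H2BC12 and H2BC5, which were among the highest members in poly-A libraries, shared the same loop with 7 other members, and the loop of H2BC18 was the commonest one.

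In 66 members an annotated transcript ended at the loop, and H2BC21 was the exception. In 17 members (H2AC1, H2AC6, H2AC25, H2BC4, H2BC5, H2BC6, H2BC11, H2BC15, H2BC18, H2BC21, H2BC26, H3C6, H3C10, H4C8, H4C14, H4C15 and H4C16) an annotated transcript ran more than 50 nt past the loop. These are called members with a long form. In 14 of the 17 a long transcript held the polyadenylation signal AATAAA within its last 40 bases, the others being H2AC25, H2BC4 and H4C16. Another annotated gene lay over 21 members on the same strand and over 16 on the other strand, and the strand used in counting was not given in the sources used here. In 9 members (H3C14 with H3C15, H4C14 with H4C15, H4C11 with H4C12, H2AC13 with H2AC14, and H2AC17 with windows of the H3 gene H3C12) over 50% of 100-base windows also occurred in another member, so their own values are uncertain. There were 24 members with no annotated gene over them and no shared window.

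The targeted genes followed the labels. G3BP1 was at 18.7 TPM (transcript abundance scaled by length and library) in siCtrl and 5.996 in siG3BP1, and G3BP2 was at 38.1 in siCtrl and 11.4 in siG3BP2. Of 15 neuroblastoma and sympathetic markers, 13 were above 1 TPM in siCtrl, while TH was at 0.30 and INSM1 was listed at 0. Of 12 markers of other cell types, COL1A1 (12.6 TPM), COL1A2 (1.99) and LUM (5.80) were above 1 in siCtrl, and the other 9 were at or below 1.

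Histone genes sat low in the knockdown and Total libraries and high in SG, which the labels also call poly-A, and in the rRNA-depleted libraries. The median member was at 0.755 TPM in siCtrl, 0.629 in siG3BP1, 0.611 in siG3BP2 and 1.27 in Total. It was at 47.5 TPM in SG. In the rRNA-depleted libraries the median member had a signal of 81.1 untreated and 79.2 after AS, where the signal behaves as reads scaled by transcript length and library size and cannot be set against TPM directly. The members made up 0.0379% of the summed values in siCtrl, 0.489% in SG and 0.813% in untreated rRNA-depleted cells. Ranks within a library were therefore compared, as the percentile of each gene among the 19878 genes found in both tables. The median member stood at percentile 38.3 in siCtrl, 37.5 in siG3BP1, 38.2 in siG3BP2, 46.3 in Total, 77.7 in SG, 89.6 in untreated rRNA-depleted cells and 87.3 in AS rRNA-depleted cells. The replication-independent histones, whose mRNAs are polyadenylated, stood at a median percentile of 95.8 in siCtrl and 85.3 in untreated rRNA-depleted cells (15 of 17 listed genes matched).

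**Figure D1:**
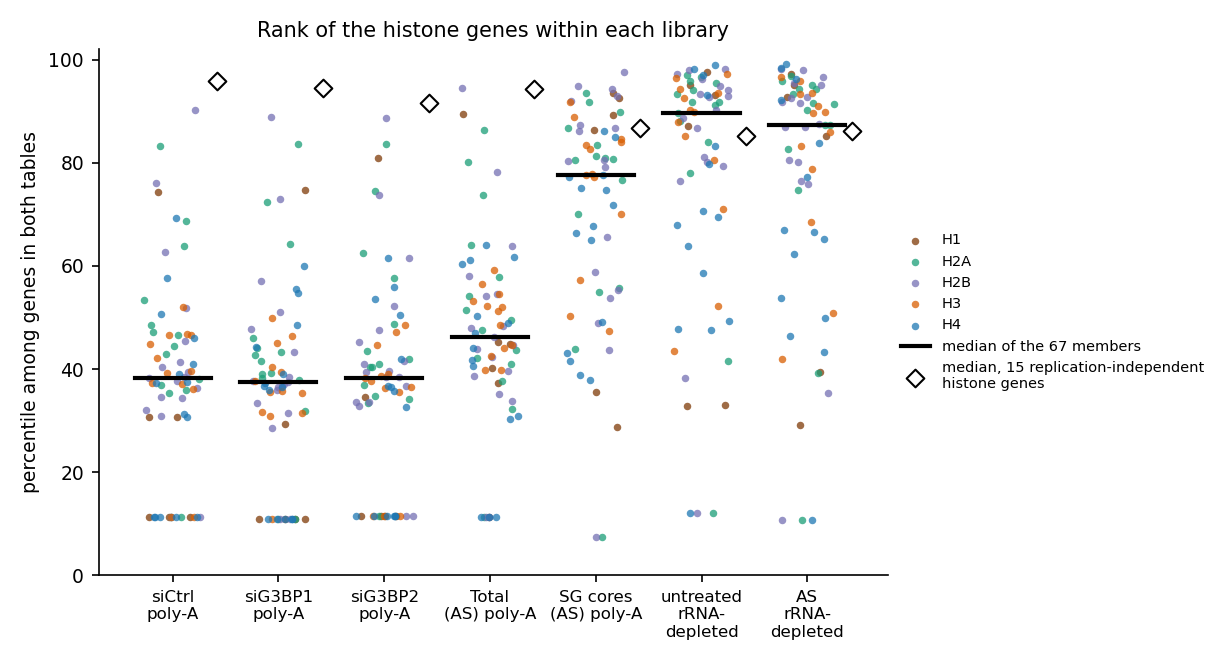
Percentile of the 67 replication-dependent histone genes among genes found in both tables (vertical axis, 0 to 100), by library (horizontal axis). Each point is 1 gene coloured by class, the line is their median and the diamond is the median of 15 replication-independent histone genes. The median lies between 37.5 and 46.3 in the siCtrl, siG3BP1, siG3BP2 and Total libraries and at 77.7 or above in SG and the 2 rRNA-depleted libraries.

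Poly-A against rRNA-depleted libraries was read from siCtrl and untreated cells. A total of 48 of 67 members had a percentile lower by over 25 points in siCtrl, whereas 5.36% of all genes did. One member, H2AC25, was higher by over 25 points in siCtrl, against 5.77% of all genes. The median member was lower by 47.2 points in siCtrl. With siG3BP1, siG3BP2 or Total in place of siCtrl, 47, 49 and 44 members were lower by over 25 points. With SG only 7 were, with a median of 8.05 points. The kind of library went with siRNA transfection, sequencing provider and unit, and these cannot be told apart. Nearest to the limit of 25 points were H2AC20 (25.4) and H2BC8 (27.6) inside it, and H4C12 (24.6) and H4C9 (22.9) outside it.

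By class, 13 of 15 H2A, 13 of 18 H2B, 11 of 13 H3, 8 of 15 H4 and 3 of 6 H1 genes were lower by over 25 points in siCtrl. Of members with a long form 9 of 17 were (median 29.5 points), and of those without one 39 of 50 were (median 49.2). Of the 24 members with no gene over them and no shared window, 19 were. On chromosome 1 it was 4 of 11 members (median 5.50 points), and on chromosome 6 it was 44 of 55. Among the 9 members that share most windows with another member 3 were lower by over 25 points, as were 45 of the other 58.

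**Figure D2:**
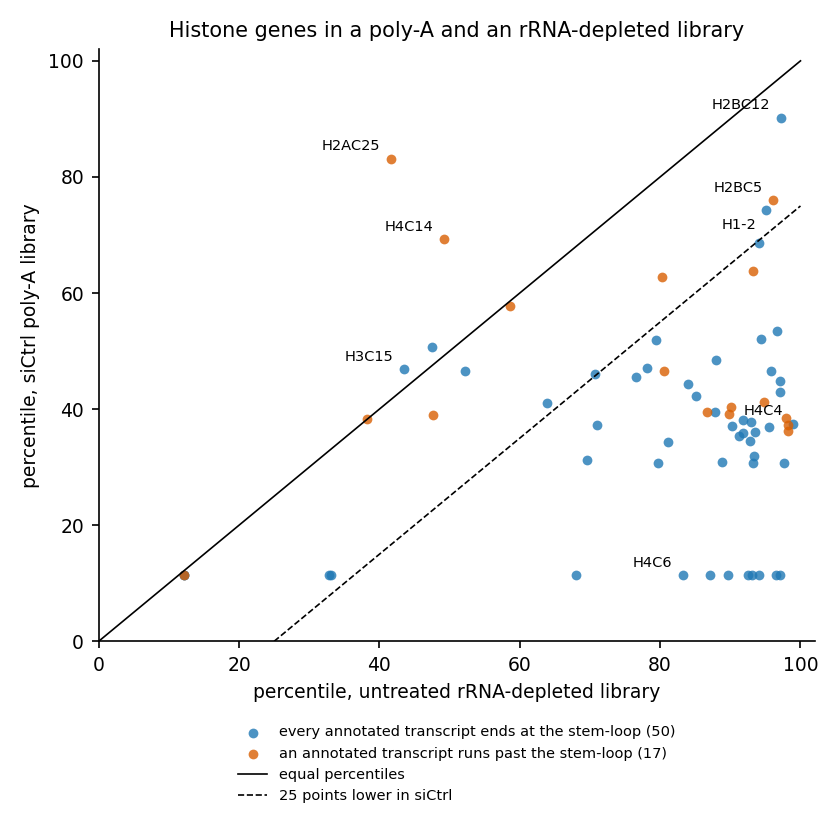
Percentile of each member in siCtrl (vertical axis) against its percentile in untreated rRNA-depleted cells (horizontal axis), both among genes found in both tables. Orange points have an annotated transcript that runs more than 50 nt past the stem-loop (17) and blue points have none (50). The 48 points below the dashed line are over 25 points lower in siCtrl, and H2AC25 lies far above the line of equal percentiles.

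With transcripts summed, the highest members in untreated rRNA-depleted cells were H4C4, H4C8, H2BC4, H2BC18 and H1-5. By their highest transcript alone the order was H4C4, H1-5 (283.3), H2BC12 (243.6), H2BC4 (243.1) and H3C3 (240.9). H4C4, an H4 gene with a single exon, had a signal of 564.9 untreated and 689.1 after AS. Its poly-A values were 0.644 TPM in siCtrl, 0.611 in siG3BP1, 0.442 in siG3BP2 and 1.96 in Total, and 69.1 in SG. It was thus the top member of the rRNA-depleted libraries and below the members' median in siCtrl. H4C8 had a signal of 349.9 untreated and 420.8 after AS, summed over 3 transcripts that hold 1200, 1200 and 1203 untreated reads; a read counts in every transcript it fits, so a sum over transcripts can count the same reads repeatedly. Its highest transcript alone was at 220.7 untreated. H4C8 was at 0.620 TPM in siCtrl, 0.835 in siG3BP1, 0.435 in siG3BP2, 1.69 in Total and 73.6 in SG. H2BC4, an H2B gene with a long form, had a signal of 342.3 untreated and 363.6 after AS, against 0.504 TPM in siCtrl, 0.466 in siG3BP1, 1.83 in siG3BP2, 1.52 in Total and 79.3 in SG. H2BC18, whose highest transcript alone was at 114.2 untreated, had a summed signal of 312.3 untreated and 391.5 after AS, with 0.795 TPM in siCtrl, 0.527 in siG3BP1, 0.646 in siG3BP2, 0.918 in Total and 138.7 in SG. H1-5 had a signal of 283.3 untreated and 292.8 after AS, while it was at 0.121 TPM in siCtrl, listed at 0 in siG3BP1, and at 0.284 in siG3BP2, 1.12 in Total and 118.9 in SG. All 5 were below 2 TPM in every knockdown library and in Total.

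A different set led the siCtrl library. H2BC12, an H2B gene with no annotated long form, was at 60.5 TPM in siCtrl, 48.9 in siG3BP1, 47.9 in siG3BP2, 87.6 in Total and 112.8 in SG, with a signal of 243.6 untreated and 246.2 after AS. H2BC12 was high in every library. H2AC25 was at 33.9 TPM in siCtrl, 32.3 in siG3BP1, 31.7 in siG3BP2, 32.6 in Total and 6.72 in SG, but had a signal of only 1.51 untreated and 1.39 after AS. The pseudogene RPL23AP15 lies over H2AC25 on the same strand, and RPL23A itself, a ribosomal protein gene, was at 2040 TPM in siCtrl, 2524 in Total and 67.9 in SG; the part of its reads in the H2AC25 value was not tested. H2BC5 was at 20.5 TPM in siCtrl, 15.6 in siG3BP1, 16.01 in siG3BP2, 17.2 in Total and 146.4 in SG, with a signal of 190.9 untreated and 200.6 after AS. H1-2, a linker histone, was at 18.5 TPM in siCtrl, 17.5 in siG3BP1, 25.8 in siG3BP2, 44.6 in Total and 74.1 in SG, with a signal of 161.4 untreated and 187.5 after AS. H2BC12, H2BC5 and H1-2 were thus high in both kinds of library, and all 3 stood within 25 points of their rRNA-depleted percentile. H4C14, which shares most of its windows with H4C15, was at 13.5 TPM in siCtrl, 5.04 in siG3BP1, 7.22 in siG3BP2, 4.92 in Total and 36.02 in SG, with a signal of 3.94 untreated and 2.57 after AS.

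The H1 genes split in the same manner. Next to H1-2 and H1-5, H1-3 was listed at 0 in all 3 knockdown libraries, at 0.549 TPM in Total and at 91.1 in SG, with a signal of 65.0 untreated and 67.1 after AS. H1-4 was at 0.124 TPM in siCtrl, 0.0820 in siG3BP1, listed at 0 in siG3BP2, and at 1.04 in Total and 128.3 in SG, with a signal of 122.1 untreated and 132.0 after AS. H1-3, H1-4 and H1-5 were thus near 0 in the knockdown libraries and above 60 in rRNA-depleted cells. H1-1 and H1-6, the latter a germline linker histone, were low in every library, with at most 0.457 and 1.90 TPM in SG and 0 in all 3 knockdown libraries. H2AC1 and H2BC1, a divergent pair known from germ cells, were at 0 in all 7 RNA-seq libraries. H4C7 was above 0 in SG only, at 3.47 TPM.

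Several members away from chromosome 6 had low values in siCtrl and in untreated rRNA-depleted cells. H3C14 was at 2.48 TPM in siCtrl with a signal of 5.27 untreated, H3C15 at 2.54 with 1.999, and H4C15 at 6.32 with 9.29. In SG these genes were at 48.0, 33.1 and 27.6 TPM, and each shares most of its windows with another member. H2BC26 was at 0.755 TPM in siCtrl with a signal of 0.859, and H4C16 on chromosome 12 at 0.872 with 3.35. In SG H2BC26 was at 6.53 TPM and H4C16 at 3.01. H2AC20 was at 12.98 TPM in siCtrl and had a signal of 136.5, and its divergent partner H2BC21 was at 8.80 with 38.9. H2AC21 (0.732 TPM, signal 101.3) and H3C13 (0.949 TPM, signal 68.7) had the pattern of the chromosome 6 genes. H2AC21 and H3C13 have no annotated long form, and neither does H3C14, H3C15 or H2AC20.

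The order of the members in SG was closer to that in rRNA-depleted cells than to that in the other libraries labelled poly-A. As a description across the 67 members, which share libraries and in part reads, Spearman's rho was 0.053 between siCtrl and untreated rRNA-depleted cells and 0.129 between siCtrl and SG. It was 0.798 between siCtrl and Total, 0.344 between Total and SG and 0.834 between SG and untreated rRNA-depleted cells. For the 50 members with no long form rho between SG and untreated rRNA-depleted cells was 0.819. Of the 11 divergent pairs above 0 in a library, with transcripts summed, 4 had the opposite order in siCtrl and untreated rRNA-depleted cells and 7 had the same order. For H2AC15 and H2BC15 the opposite order rested on the sum, with signals of 49.9 and 62.0. By its highest transcript alone H2BC15 was at 29.5, which gave the order of siCtrl. H2AC12 and H2BC12 were at 0.468 and 60.5 TPM in siCtrl, while their signals were 101.2 and 243.6 in untreated rRNA-depleted cells. H2AC6 and H2BC4 were at 9.42 and 0.504 TPM in siCtrl but had signals of 123.0 and 342.3, so the order within the pair was the opposite, whereas it was kept in H2AC12 and H2BC12. H2AC8 and H2BC8 were at 4.56 and 3.99 TPM with signals of 214.6 and 36.8, again in the same order.

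Histone mRNA took up a larger share of the SG library than of the Total library. The labels and the methods differ on whether these libraries were poly-A selected, and the part of library selection in this difference was not tested. With 1 TPM added to both values here, and the study's limits of a ratio above 2 with SG above 1 TPM for higher and below 0.5 with Total above 1 TPM for lower, 61 of 64 members above 1 TPM in either fraction were higher in SG and 1 was lower. Among all 13549 such genes 62.9% were higher and 9.45% lower. These shares, and those of other gene sets given below, were not matched for level in Total. Of the 67 members, 64 were above 1 TPM in SG but only 38 were in Total. Under these limits a member at or below 1 TPM in Total could not be called lower. Of the 19878 genes ranked above, 13414 were above 1 TPM in SG and 11046 were in Total. The median log2 ratio was 3.87 for members (14.6-fold) and 1.51 for all genes. The median SG to Total ratio of genes above 1 TPM in both fractions was 2.78, and with this ratio set to 1 the members' median log2 ratio was 2.45, with 53 higher and 2 lower. H2BC14, H4C1, H4C6 and H4C7 were listed at 0 in Total, so their ratios rest on the added 1 TPM.

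Most members are short, and other short genes were placed differently. Of 551 other genes with no transcript of 1000 nt or longer, 28.7% were higher in SG and 48.1% lower, with a median log2 ratio of -0.87. Of 266 other genes with a single exon in every transcript, 74.1% were higher and 2.63% lower, with a median of 1.58. The replication-independent histones above 1 TPM (12 genes) had 3 higher, 4 lower and a median of -0.29. Among these H3-3A, which codes for the H3.3 variant, was at 1557 TPM in Total and 184.9 in SG, and H2AZ1 was at 568.3 in Total and 77.0 in SG.

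**Figure D3:**
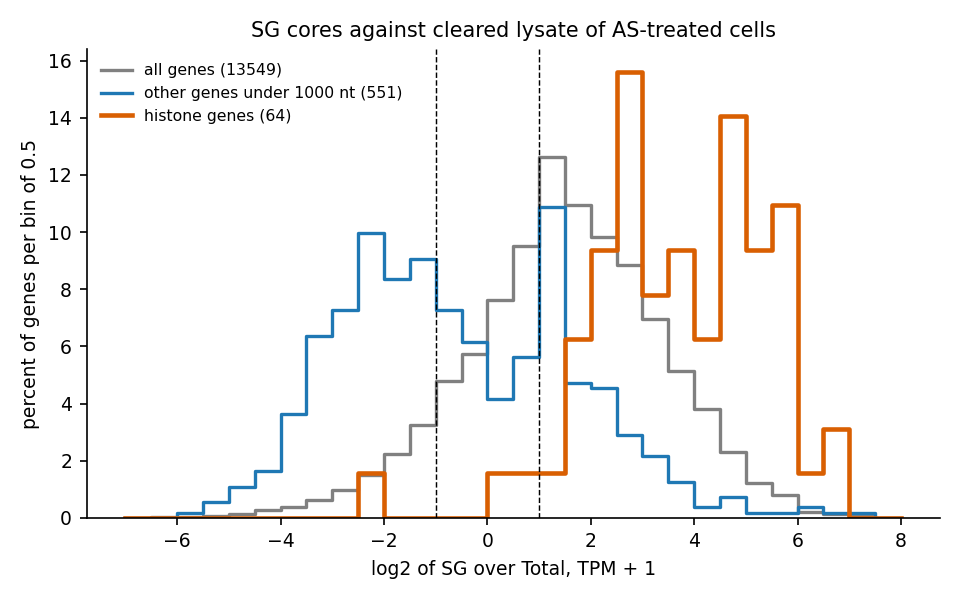
Distribution of the log2 ratio of TPM + 1 in SG over Total (horizontal axis) as the percentage of genes in each bin (vertical axis), for the 64 members above 1 TPM in either fraction, for all genes and for other genes under 1000 nt, with dashed lines at 2-fold. The members' median is 3.87, that of all genes 1.51 and that of the other short genes -0.87.

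With 1 TPM added, the 5 largest differences were in H2B and H1 genes; with 0.1 TPM added, H4C6 and H2AC21 ranked above H2BC6. H2BC14 was listed at 0 in Total and was at 121.3 TPM in SG. H2BC6 was at 1.03 TPM in Total and 226.5 in SG (log2 ratio 6.80), the highest SG value of any member. H2BC18 followed at 6.19, H1-4 at 5.98 and H2BC10, at 0.220 TPM in Total and 76.0 in SG, also at 5.98. At the other end H2AC25 was lower in SG, with a log2 ratio of -2.12, beside -5.20 for RPL23A. H2BC12 (0.36) and H1-2 (0.72), both already high in Total, were neither higher nor lower by the rule. H1-6 (1.13) and H4C9 (1.64, from 0.957 to 5.11 TPM) were higher by the least.

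By class the median log2 ratio was 5.82 for H1 (5 genes), 3.93 for H2A (14), 3.90 for H3 (13), 3.02 for H2B (17) and 2.84 for H4 (15). It was 2.61 for members with a long form (15 of 16 higher) and 4.13 for those without (46 of 48). Of the 24 members with no gene over them and no shared window, 23 were above 1 TPM and 21 were higher, with a median of 3.41. Of 18 genes of histone mRNA 3′-end processing 10 were higher and 6 lower. SLBP was at 40.8 TPM in Total and 118.5 in SG, and NPAT at 1.53 and 37.7, whereas SNRPF, an Sm protein of the snRNP, was at 88.0 and 7.14. Of 21 genes of histone mRNA translation and decay 12 were higher and 4 lower. UPF1, the helicase of decay, was at 29.7 TPM in Total and 195.6 in SG. Of 24 S-phase genes 12 were higher and 1 was lower. Among all genes above 1 TPM in either fraction 62.9% were higher and 9.45% lower. In each of these lists the share of higher genes was below that over all genes.

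A larger share of members than of all genes was past 2-fold on knockdown, but these calls rested on low values. Of these members H4C14 was at 13.5 TPM in siCtrl and the others were at or below 6.32. With a minimum of 5 TPM, 0 were higher and 2 lower with siG3BP1, and 0 and 0 with siG3BP2. The shares over all genes given below were not matched for level. Of 28 members above 1 TPM in siCtrl or siG3BP1, 1 had a ratio above 2 and 8 had one below 0.5, where 2.53% and 3.68% of all such genes did. Of 31 members above 1 TPM in siCtrl or siG3BP2, 2 were higher and 8 lower, against 2.42% and 5.62%. The median log2 ratio was -0.34 for siG3BP1 (-0.09 over all genes) and -0.18 for siG3BP2 (-0.13 over all genes). Both comparisons use the same siCtrl library. The read depth of these libraries is unknown. Poly-A selection captures mRNAs without a tail poorly, so a change in the whole histone mRNA was not measured. In such bulk samples fewer cells in S phase, less histone mRNA per cell, a change in polyadenylated forms and scatter at low values cannot be told apart.

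With siG3BP1, H4C12 was higher, at 4.78 TPM against 2.34 in siCtrl. H3C15 was at 0.131 TPM against 2.54 in siCtrl, and H3C1 was at 0.162 against 1.46. H2AC8 was at 1.62 against 4.56, H4C14 at 5.04 against 13.5, H2AC15 at 0.733 against 1.94 and H3C14 at 1.05 against 2.48. The remaining members below 0.5 were H4C15 and H2AC13. Of these 8, 5 share most of their windows with another member.

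With siG3BP2, H2BC4 was higher at 1.83 TPM against 0.504, and H3C6 at 2.58 against 0.891. H3C14 and H3C15 were listed at 0. H3C3 was at 0.611 against 2.03, H3C1 at 0.542 against 1.46, H2AC17 at 0.948 against 2.47 and H3C12 at 1.69 against 4.05. The remaining members below 0.5 were H2AC15 and H2AC13, and 4 of the 8 share most of their windows with another member. H3C12 is not counted in these 4, but most windows of H2AC17 occur in it and it overlaps H2AC17 on the same strand. The part of shared reads in the values of H2AC17 and H3C12 was not tested. Of the 6 members above 10 TPM in siCtrl, H2BC12, H2AC25, H2BC5, H1-2 and H2AC20 were within 2-fold of siCtrl in both knockdowns, and H4C14 was below 0.5 with siG3BP1. None of the 17 genes of 3′-end processing above 1 TPM and none of the 24 S-phase genes passed 2-fold in either knockdown. CTIF, a translation factor that binds SLBP complexes, was the 1 gene of translation and decay below 0.5 in siG3BP1 and in siG3BP2, with log2 ratios of -2.54 and -1.88. Of the 11 replication-independent histones above 1 TPM, MACROH2A2 alone passed 2-fold, at -1.28 in siG3BP2.

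All but 1 of the histone genes above 1 were within 2-fold after AS in the rRNA-depleted libraries. Of 62 members above 1 in either library 1 was higher after AS and 0 were lower, against 7.66% and 1.41% of 12683 genes. The 1 member was H1-6, whose transcript held 3 reads untreated and 12 after AS, a ratio of 4.71 with a 95% exact counting interval of 1.27 to 26.02. The members' median log2 ratio was 0.09, and that of all genes was 0.29. With the median ratio of all genes, 1.21, set to 1, the members' median was -0.19, so its direction depends on the scaling.

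Counting error could be set for 39 members whose highest transcript gave at least 20 whole untreated reads (39 to 3026). Intervals cover counting error only, not the spread between cultures. The ratio of AS to untreated signal ranged from 0.786 to 1.28 with a median of 1.05. The interval included 1 for 27 members, lay above 1 for 12 and lay below 1 for 0. The median ratio of 10467 genes above 1 in both libraries was 1.21 with a 10th to 90th percentile of 0.958 to 1.63. Of the 39 members 36 were below that median, with the whole interval below it for 20 and above it for 0. H4C4 had 3026 reads untreated and 3133 after AS, H1-5 had 3001 and 2633, and H2BC12 had 1603 and 1375, where 1 read was worth 1.18 times as much signal in the AS library. The median log2 ratio was 0.26 for genes of 3′-end processing, 0.27 for translation and decay and 0.22 for the S-phase list. That of the members was 0.09 and that of all genes 0.29. In these lists 1 was higher and 1 lower of 18 in 3′-end processing, 1 and 1 of 20 in translation and decay, and 1 and 0 of 23 in the S-phase list. The first pair were ZNF473, a U7 snRNP factor, at 21.4 untreated and 57.8 after AS, and CASP8AP2 at 4.55 and 1.15.

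**Figure D4:**
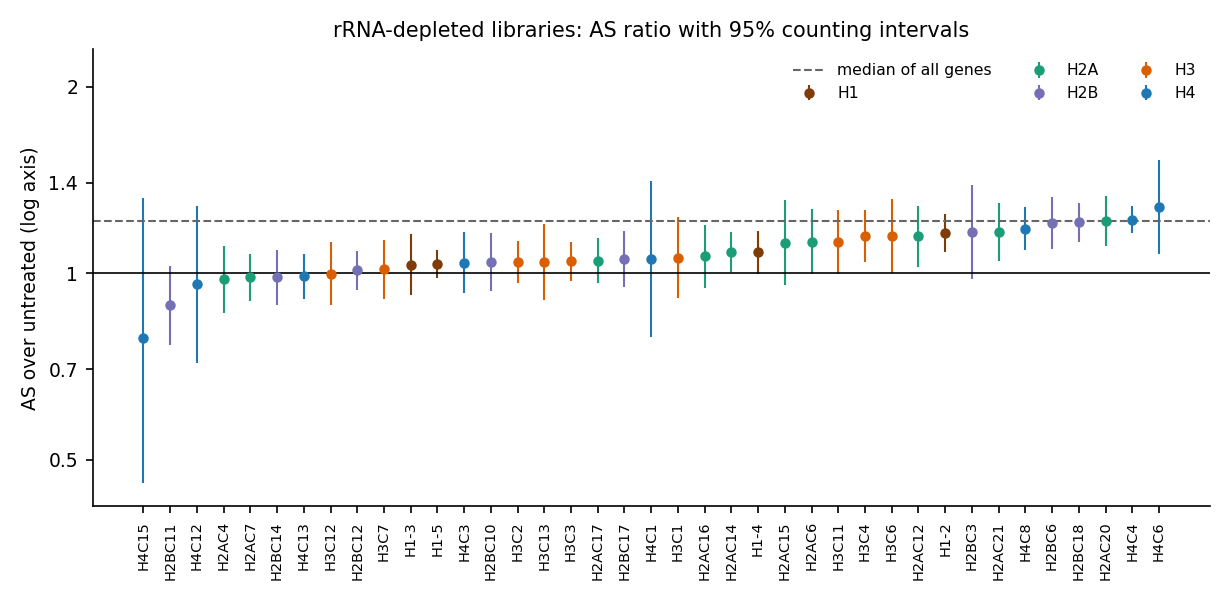
Ratio of AS to untreated signal (vertical log axis) for the 39 members with at least 20 whole untreated reads, ordered by that ratio (horizontal axis) and coloured by class. Bars are 95% exact counting intervals and the dashed line is the median of all genes. The points lie between 0.786 and 1.28, most of them below the median of all genes at 1.21.

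G3BP1 and G3BP2 eCLIP values of these genes were low. A value is the log10 of a whole number plus 1 for each gene and library, and it covers the whole gene span with introns. Of 67 members 24 (35.8%) were at 0 in all 8 libraries, against 2.29% of all genes, and 14 (20.9%) were above 0 in all 8, against 82.7%. The median over members of the mean value per kilobase of gene was 0.638 on the linear scale, against 6.42 for all genes and 2.48 for the replication-independent histones. The library totals ranged from 4268911 to 26179736.

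Gene span went with this. Of 49 members with a span up to 1000 bases, 24 (49.0%) were at 0 in all 8 libraries, against 43 of 386 (11.1%) other genes of that span. Of the 18 longer members none was at 0 throughout and 10 were above 0 in all 8. Among the members at 0 in all 8 libraries were H4C4, H1-2, H1-3, H1-4 and H1-5, which had signals of 65.0 to 564.9 in untreated rRNA-depleted cells. Conversely, the 3 members at 0 in both rRNA-depleted libraries, H2AC1, H2BC1 and H4C7, were each above 0 in 6 of 8 eCLIP libraries. Their log10 values reached 0.78 at most. H2BC12, the highest member in siCtrl, had values of 0.48 and 0.70 for G3BP1 and 0 and 0 for G3BP2 in untreated cells, and 0.48 and 0.70 for G3BP1 and 0.30 and 0 for G3BP2 after AS. H2AC25 was above 0 in 1 of 8 libraries, although its span is 23097 bases. Of the 29 members of short span with no annotated gene over them, 13 were at 0 throughout, as were 11 of the 20 short members with one.

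**Figure D5:**
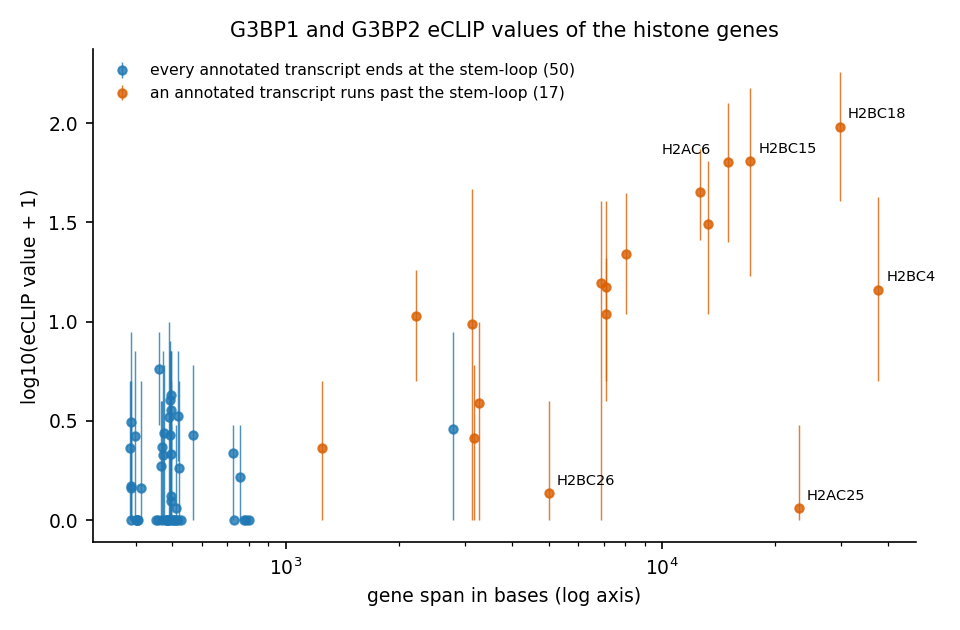
Mean eCLIP value of each member over the 8 libraries (vertical axis, log10 of value plus 1) against its gene span (horizontal log axis, bases), with bars from the lowest to the highest library and orange for members with a long form. All members at 0 in every library have spans up to 1000 bases, and H2BC18, H2BC15 and H2AC6, with spans of 14972 to 29685 bases, are the highest.

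The highest members were long genes. H2BC18 had values of 2.13 and 1.85 for G3BP1 and 2.17 and 1.96 for G3BP2 in untreated cells, and 2.21 and 1.67 for G3BP1 and 2.26 and 1.61 for G3BP2 after AS. H2BC15 had values of 2.04 and 1.59 for G3BP1 and 1.97 and 1.94 for G3BP2 untreated, and 2.06 and 1.23 for G3BP1 and 2.18 and 1.45 for G3BP2 after AS. H2AC6 had values of 2.06 and 1.69 for G3BP1 and 2.1 and 1.61 for G3BP2 untreated, and 2.01 and 1.4 for G3BP1 and 2.1 and 1.46 for G3BP2 after AS. In these 3 genes the deposited untreated and AS values overlapped for both proteins. They are not scaled for library totals, which differ between replicates, so the overlap does not measure a change with AS.

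No member passed the eCLIP test of AS against untreated cells. With limma on values scaled to one total, and Benjamini-Hochberg adjustment over all genes tested, 0 of 18888 genes (0%) passed an adjusted p of 0.05 for G3BP1, while an unadjusted p under 0.05 was reached by 251 genes upwards and 233 downwards. For G3BP2 it was 0 of 19035 (331 and 305), and for the difference between the changes of the proteins 0 of 19259 (63 and 87). Filters left 36, 35 and 41 members in these tests. The members' median log10 change was 0.0019 for G3BP1 and -0.0044 for G3BP2. H4C14 was the 1 member with an unadjusted p under 0.05 for G3BP1, with a log10 change of 0.64 (limma SE 0.239, adjusted p = 0.996). Its deposited G3BP1 values were 1.18 and 0.70 untreated and 1.61 and 1.30 after AS, and its reads cannot be told from those of H4C15 in most windows. For G3BP2 it was H2BC8, with values of 0 and 0 untreated and 1.00 and 0.48 after AS and a log10 change of 0.69 (limma SE 0.265, adjusted p = 0.995). The largest change for G3BP1 was that of H4C16, with values of 1.49 and 0 untreated and 1.45 and 1.04 after AS, whose change of 0.74 was within the spread of its libraries (limma adjusted p = 0.996). H4C16 also differed most between the proteins, by -1.19 (limma adjusted p = 1).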

How the data were processed

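Members and gene lists were chosen with earlier results of these data known. Groups came from the sample labels. eCLIP reads were trimmed, aligned with STAR and peak-called with CLIPper by the authors, who deposited log10 values per gene, which are log10(whole number + 1) to 2 decimals and unscaled. Size-matched inputs were not analysed here. RNA-seq reads were aligned with HISAT2 (version 2.1.0 in the submitters' processing notes) and quantified with StringTie against GENCODE release 41, and the authors deposited TPM per gene, which gives no depth. The deposited rRNA-depleted signal per transcript is headed TPM, yet it sums to 1040000 and 1217000; value times length is a whole multiple of a constant for 97.17% and 97.13% of values within 0.01, as for RPKM. Reads summed over transcripts came to 24344538 untreated and 24392520 after AS. They were used for members whose highest transcript gave whole reads (46 of 67). A count of 3 reads on 500 nt is a signal of 0.451 untreated and 0.532 after AS.

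IDs were matched to GENCODE release 44 (hg38) by gene ID without version, and 18 IDs on 2 rows were counted once. Transcripts were summed to genes. Single-library ratios were called above 2 or below 0.5 with the higher library above 1 and had no test. For eCLIP, each library was scaled to the geometric mean of the 8 totals. Genes above 0 in at least 2 of 4 libraries were fitted with limma 3.58.1 (intensity trend) in R 4.3.3. No replicate block was used, because nothing in the labels pairs replicates beyond their number. Replicate 1 had the larger total in every group, 22678678 to 26179736 against 4268911 to 10678043 for replicate 2. Members at 0 numbered 31 to 32 in replicate 1 libraries and 37 to 41 in replicate 2 libraries. The part of this difference in the spread of low values was not tested. Nothing says that duplicates came from separate cultures, so p-values measure only the spread between these libraries. The fit was tested on simulated G3BP2 values with normal errors. Of 200 genes given a log10 change of 1, 198 were called, as were 5 unchanged genes. That change is larger than any member's in the test of either protein. The simulation therefore cannot show whether changes of the members' size would be called. The other computations used Python 3.11.15, numpy 2.4.6, pandas 2.3.3 and scipy 1.17.1.

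Named members were the 5 highest in siCtrl and in untreated rRNA-depleted cells, the 5 highest and 5 lowest SG to Total ratios, up to 6 a direction past a fold call, the 3 highest in eCLIP, the largest eCLIP change for each protein, H1 genes, genes off chromosome 6 and those with a long form. Other named members (H2AC12, H2AC8, H2BC8, H4C6, H2AC1, H2BC1, H4C7 and the listed pathway genes with values) were chosen after their values were seen. Alternatives were another pseudocount, fold, minimum or scaling, the highest transcript, other poly-A libraries, the AS library as rRNA-depleted library (chosen after seeing the data), a replicate block and leaving out each eCLIP library.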

Additional observations from a re-analysis of the deposited data

Results flagged for a closer look

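H2AC18 and H2AC19, a pair of H2A genes on chromosome 1 (hg38 chr1:149842218-149842750 and chr1:149851061-149851594), met the rule but were in the per-transcript table only, outside the comparisons above. H2AC18 had a signal of 18.91 in untreated rRNA-depleted cells and 21.96 after AS. H2AC19 had one of 5.602 untreated and 5.658 after AS. Both untreated values were above the signal of 3 reads, 0.4235 for H2AC18 and 0.4227 for H2AC19.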

How the results depend on the processing

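The members' median log2 ratio of AS to untreated signal reversed, from 0.09 to -0.19, with the median ratio of all genes set to 1. No other result reversed. The count of members lower in SG was 2 with the median ratio set to 1, and the members' median log2 SG to Total ratio was 4.55 with 0.1 TPM added. Knockdown counts rested on low values: adding 1 TPM left 0 higher and 4 lower with siG3BP1 and 0 higher and 2 lower with siG3BP2, a minimum of 5 TPM left 0 and 2 with siG3BP1 and 0 and 0 with siG3BP2, and no minimum gave 7 and 14 with siG3BP1 and 9 and 15 with siG3BP2. With siG3BP1, 4 were higher at a ratio of 1.5 and 2 with the median ratio set to 1. After AS 0 members were higher with 1 added or a minimum of 5, and 2 were higher and 1 lower at a ratio of 1.5. The count of members lower in poly-A ranged from 43, ranking only genes above 0, to 55, with the highest transcript. With summed spans of transcripts the eCLIP value per kilobase was 0.551 for members, 2.21 for all genes and 1.54 for the replication-independent histones. With gene span these were 0.638, 6.42 and 2.48, so the members' gap to all genes was smaller with summed spans.

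With a replicate block 0 genes passed for G3BP1, for G3BP2 and for their difference, and members called stayed at 0. Deviations of same-numbered libraries correlated at 0.152 for G3BP1 and 0.0635 for G3BP2, and nothing in the labels pairs them. With values as deposited 2 genes passed for G3BP2. Leaving out each library in turn gave 0 to 2 genes for G3BP1, the 2 without untreated replicate 2, and 0 members in every fit; a lone library was assumed to vary like the others. Of the main counts and values 60 alternatives kept their place and 21 moved, and of those for single genes and medians 182 did and 35 moved. The unknown depth of the TPM libraries limits every ratio of members near 1 TPM.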
